A study of Mus musculus with 4 samples.

Results

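Hox genes encode homeodomain transcription factors that lie in the HoxA, HoxB, HoxC and HoxD clusters, and they were compared here together with the *Meis* and *Pbx* genes, whose proteins bind DNA beside them. The list held 44 genes: 38 Hox genes, *Meis1*, *Meis2*, *Meis3*, *Pbx2*, *Pbx3* and *Pbx4*. A member was measured where at least 1 array probe set carried its symbol and no other, and reached 5.04 on the log2 scale on at least 2 of the 4 arrays. By this rule 36 members were measured, 30 Hox genes and all 6 *Meis* and *Pbx* genes, among 18762 measured genes of 22184 named on the array.

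RNA came from bone marrow cells of *iSox7* transgenic mice, in which doxycycline switches on SOX7 together with GFP, and 2 arrays were hybridized for each subpopulation, SOX7::GFP high and SOX7::GFP low. Both subpopulations came from cells passaged 10 to 12 times on irradiated OP9, a mouse bone marrow stromal line, in medium with Kit ligand, Interleukin-7 and FLT3, and were separated by sorting for SOX7::GFP and cKIT. The labels also name an iSOX7 line, derived from Ainv18, and they do not give doxycycline array by array, while the study describes both subpopulations among the GFP-positive cells of doxycycline cultures. Strain, age and any pooling of mice are not given in the sources used here, and although the study calls the arrays biological duplicates, no source used here says whether they differ by mouse, culture or sort, so the p-values speak only of how far these arrays scatter.

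In blood, genes of the HoxA and HoxB clusters are used by stem and progenitor cells and fall as cells mature. MEIS and PBX proteins belong to the TALE class of homeodomain proteins, which lengthen and sharpen the DNA sequence that a Hox protein recognizes. *Meis1* with *Hoxa9* is known for maintaining haematopoietic stem cells and for driving acute leukaemia when both are expressed at high level in progenitors.

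The sample labels were checked on *Sox7* itself. It read 9.52 and 9.63 on the log2 scale on the SOX7::GFP high arrays and 9.07 and 8.90 on the SOX7::GFP low arrays. The arrays did not overlap, and the difference was 0.59, under the call threshold (limma, standard error 0.15, adjusted p = 0.0859). Values of all genes correlated at r = 0.961 within SOX7::GFP high and 0.958 within SOX7::GFP low, against 0.859 to 0.865 between groups. The general leukocyte markers *Ptprc*, *Spn*, *Vav1* and *Coro1a* had a mean of 9.35 to 9.40 on each array, and limma called none of the 4 (0 with an unadjusted p under 0.05, and 1 by t-test). Called genes had a Benjamini-Hochberg adjusted p under 0.05 in limma and differed by at least 2-fold. In bulk RNA of this kind, fewer cells of a type and less RNA per cell cannot be told apart.

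*Meis1* and *Meis3* had higher expression in the SOX7::GFP high subpopulation, and no other member was called in the limma fit across all genes. These 2 of 36 members (5.56%) stand beside 3.61% of all genes called higher, a share near that of all genes. No member was called lower, against 3.24% of all genes, and 6.85% of genes were called in either direction. At an unadjusted p under 0.05 stood 5 of 36 members (13.9%), *Meis1*, *Meis3*, *Pbx3*, *Hoxa9* and *Hoxa6*, against 23.9% of all genes. Of these, *Hoxa6* rested on 1 probe set that passed the filter through the SOX7::GFP low arrays alone and so had to differ. In a t-test *Meis3* alone of the members had an unadjusted p under 0.05 (3504 genes of all did), and no gene was called after adjustment.

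*Meis3*, a TALE gene best known for patterning the hindbrain of frog and zebrafish embryos, had the larger difference. It read 7.98 and 8.57 on the SOX7::GFP high arrays and 4.55 and 3.78 on the SOX7::GFP low arrays. The groups lay far apart, at 4.11 on the log2 scale (standard error 0.34, 95% interval 3.23 to 5.00, adjusted p = 0.00666 from limma), or 17.3-fold. The SOX7::GFP low mean of 4.16 was under the filter value of 5.04, so background limits the size of this difference. All 6 *Meis3* probe sets were higher in SOX7::GFP high cells without overlap, by 2.69 to 5.29, as were 30.3% of all kept probe sets by any size. Of these, 3 passed the filter through the SOX7::GFP high arrays alone and so had to differ, and the other 3 were higher by 2.69, 3.22 and 4.34. In every fit with 1 array left out *Meis3* stayed called, at 3.73 to 4.50 (adjusted p = 0.0243 to 0.0490 from limma).

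*Meis1*, the family member used by haematopoietic stem cells and megakaryocytes, read 7.71 and 8.12 on the SOX7::GFP high arrays and 4.58 and 5.81 on the SOX7::GFP low arrays. The groups did not overlap, while the SOX7::GFP low arrays stood further apart from each other than the SOX7::GFP high arrays. The difference was 2.72 (standard error 0.44, 95% interval 1.57 to 3.87, adjusted p = 0.0310 from limma), or 6.58-fold. Of its 23 probe sets, 19 passed the filter and 18 of these were higher by at least 2-fold without overlap, the whole range being 0.25 to 4.37. Only 1 had passed through the SOX7::GFP high arrays alone, and the other 18 had a median difference of 3.01. The call rested on both SOX7::GFP high arrays: without replicate 1 the difference was 2.92 (adjusted p = 0.123 from limma), and without replicate 2 it was 2.51 (adjusted p = 0.160 from limma).

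*Meis2*, the closest relative of *Meis1*, was not called. It read 6.24 and 6.32 on the SOX7::GFP high arrays and 6.02 and 5.84 on the SOX7::GFP low arrays. These arrays did not overlap, but the difference of 0.35 (95% interval -0.03 to 0.73, adjusted p = 0.242 from limma) did not pass. Of 28 probe sets 7 passed the filter, and 1 of them was called higher, at 6.44 and 6.53 against 4.85 and 4.84. That probe set had passed through the SOX7::GFP high arrays alone, and the other 6 differed by -0.33 to 0.63. For comparison, 2.25% of all kept probe sets were called higher and 1.77% lower. Among the members 13 were called higher, 8 of *Meis1*, 4 of *Meis3* and 1 of *Meis2*, with none lower, and of these 3 of *Meis3* and the 1 of *Meis2* had passed through the SOX7::GFP high arrays alone.

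**Figure D1:**
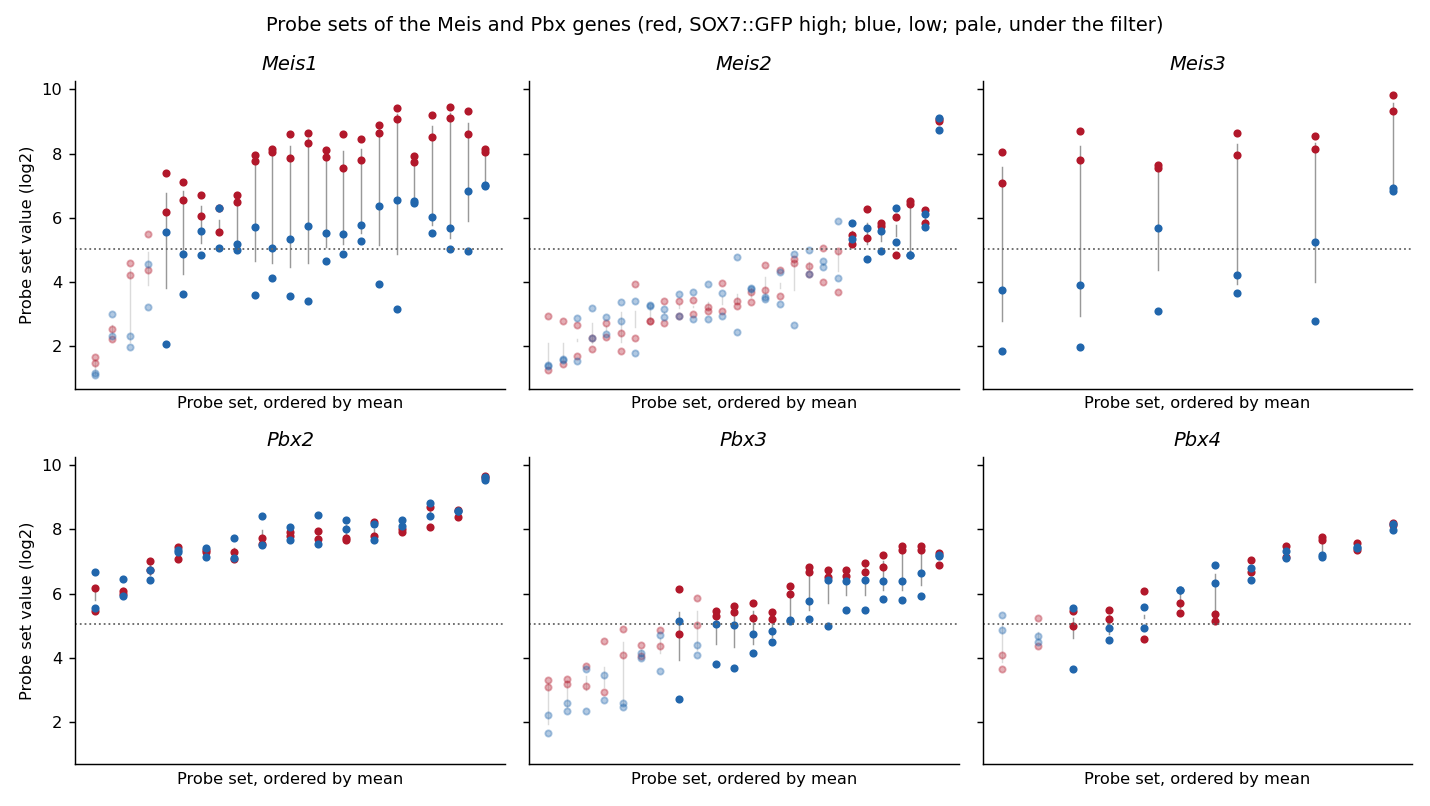
Every probe set of the *Meis* and *Pbx* genes, ordered by its mean over the 4 arrays, with log2 values of the SOX7::GFP high (red) and SOX7::GFP low (blue) arrays, a line between the group means, the filter value of 5.04 dotted and probe sets under it pale. Red and blue points lie apart in nearly all *Meis1* and all 6 *Meis3* probe sets, lie closer in *Pbx3*, and mix in most probe sets of *Pbx2* and *Pbx4*. Of the kept probe sets shown, 1 of *Meis1*, 1 of *Meis2*, 3 of *Meis3*, 3 of *Pbx3* and 1 of *Pbx4* had passed the filter through the SOX7::GFP high arrays alone and so had to differ.

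The stretches before the annotated starts of the *Meis* genes are shown because these 3 genes of 1 family had unlike differences between the subpopulations. Control of these genes by SOX7 was not tested. They are the 250 bases upstream in the RefSeq annotation of GRCm38.p6, 5′ to 3′ on the gene's strand, with the SOX core ACAAT, searched on both strands (ATTGT on the other), in capitals. *Meis1* lay at chr11:19018970-19019219 (minus strand), *Meis3* at chr7:16175145-16175394 (plus strand) and *Meis2* at chr2:116064620-116064869 (minus strand).
Meis1: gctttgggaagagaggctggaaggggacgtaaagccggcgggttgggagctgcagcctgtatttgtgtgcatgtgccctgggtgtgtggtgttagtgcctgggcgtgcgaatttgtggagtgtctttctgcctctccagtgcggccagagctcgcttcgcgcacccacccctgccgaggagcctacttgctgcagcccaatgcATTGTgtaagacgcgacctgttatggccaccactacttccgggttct
Meis3: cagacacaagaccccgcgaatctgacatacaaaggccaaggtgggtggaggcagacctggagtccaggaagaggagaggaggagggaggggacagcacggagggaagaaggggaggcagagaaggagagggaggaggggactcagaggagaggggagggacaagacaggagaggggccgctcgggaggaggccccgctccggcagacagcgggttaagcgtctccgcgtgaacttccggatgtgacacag
Meis2: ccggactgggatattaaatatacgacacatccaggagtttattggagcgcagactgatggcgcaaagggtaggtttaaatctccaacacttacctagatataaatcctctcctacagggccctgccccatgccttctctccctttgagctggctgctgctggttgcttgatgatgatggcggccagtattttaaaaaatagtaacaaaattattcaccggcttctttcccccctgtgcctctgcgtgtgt
*Meis1* held 1 match and *Meis2* and *Meis3* none. The core was present in 27.7% of all 32851 promoter windows and in 6 of the 29 windows of the 27 members that had one. Of these 6, 4 were among 10 HoxA windows, 1 was among 10 HoxD windows and 1 was that of *Meis1*. HoxB had only 3 windows and HoxC only 1, so most genes of these clusters were not searched. The MEIS core TGACAG (both strands, chosen after values were seen) was in 15.9% of all windows and 2 of 29 member windows, both in HoxA. Member windows had a median GC content of 59.2%, against 52.4% over all. A match describes letters in this window only, and no other start was searched.

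Among the *Pbx* genes, which encode DNA-binding partners of Hox and MEIS proteins, *Pbx3* had the largest difference. It read 6.28 and 6.43 on the SOX7::GFP high arrays and 5.65 and 5.16 on the SOX7::GFP low arrays. The groups did not overlap, yet the difference of 0.95 (standard error 0.21, 95% interval 0.40 to 1.50, 1.93-fold) missed both thresholds (adjusted p = 0.0653 from limma). With the median in place of the mean of its probe sets it was 1.20 and was called (adjusted p = 0.0205 from limma). Of its 14 kept probe sets none was called. Of these, 3 had passed the filter through the SOX7::GFP high arrays alone and so had to differ, and the other 11 differed by -0.11 to 1.51 with a median of 0.95.

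*Pbx2*, expressed in most tissues, read 7.66 and 7.53 on the SOX7::GFP high arrays and 7.91 and 7.51 on the SOX7::GFP low arrays. *Pbx4* read 6.34 and 6.51 against 6.50 and 6.26. Both overlapped between groups, and their differences were -0.12 (95% interval -0.61 to 0.38) and 0.04 (95% interval -0.38 to 0.46). The 10 kept *Pbx4* probe sets disagreed, from -1.35 to 0.63, and limma called none. Without overlap, 2 were higher (30.3% of all kept probe sets) and 2 lower (21.2%). Of the higher ones, 1 had passed the filter through the SOX7::GFP high arrays alone and so had to differ. Over all 3 genes, 39 of 49 *Pbx* probe sets passed the filter.

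**Figure D2:**
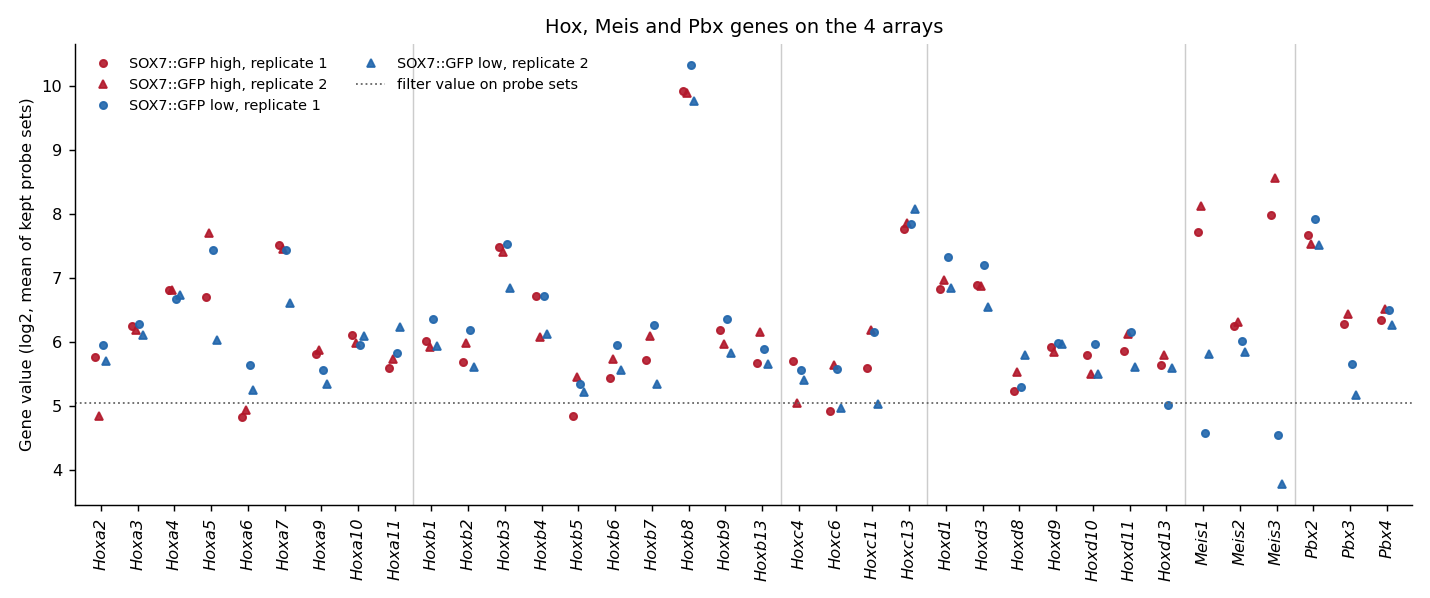
Log2 value of each measured Hox, *Meis* and *Pbx* gene on the 4 arrays (red, SOX7::GFP high; blue, SOX7::GFP low; circles, replicate 1; triangles, replicate 2), in cluster order, with the filter value of 5.04 dotted. *Meis1* and *Meis3* show wide gaps between red and blue, and in 24 of 30 Hox genes the blue circle lies above the blue triangle.

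No Hox gene was called in either direction. Of 30 measured, 2 (6.67%), *Hoxa9* and *Hoxa6*, had an unadjusted p under 0.05 in limma, against 23.9% of all genes, and none had in the t-test. The largest difference in either direction was 0.56 on the log2 scale, and the lowest adjusted p was 0.158. The median difference was -0.02, against 0.05 over all genes tested. For 23 of 30 Hox genes (76.7%) the 95% interval lay within a 2-fold change in both directions, against 71.4% of all genes, so that a larger change lay outside the interval for these and not for the other 7. These intervals make no allowance for background, which can hide a change in genes near the filter value. Arrays did not overlap for 7 Hox genes (23.3%), against 54.4% of all genes. *Hoxa4*, *Hoxa7*, *Hoxa9* and *Hoxd13* were those with SOX7::GFP high above (32.2% of all genes), and *Hoxa6*, *Hoxa11* and *Hoxd9* those with SOX7::GFP low above (22.2% of all genes). *Hoxa6*, in both of these counts, rested on 1 probe set. That probe set had passed the filter through the SOX7::GFP low arrays alone and so had to differ.

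**Figure D3:**
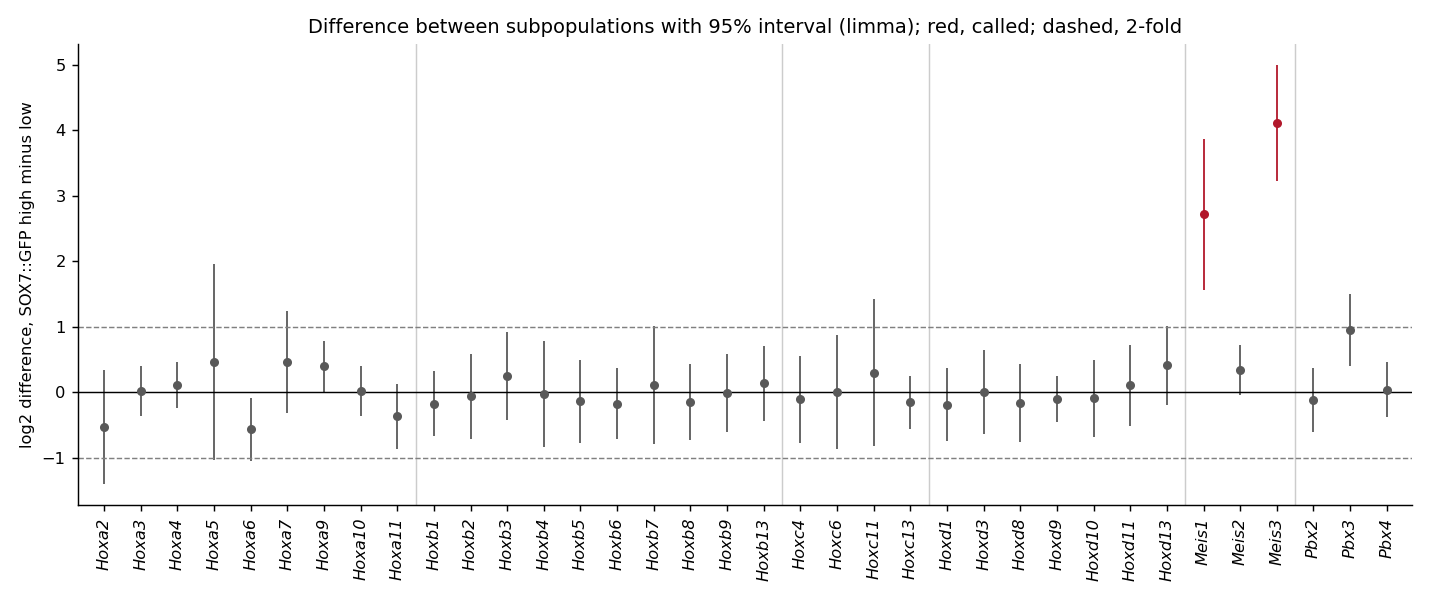
Log2 difference, SOX7::GFP high minus low, of each measured member with its 95% interval from limma (2 arrays per group), in cluster order, called genes in red and a 2-fold change dashed. Intervals of *Meis1* and *Meis3* lie wholly above 2-fold, and every Hox estimate lies between -0.56 and 0.46.

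The HoxA cluster holds the genes most tied to blood progenitors and leukaemia, and 9 of its 10 listed members were measured. *Hoxa9*, the partner of *Meis1* in leukaemia, read 5.81 and 5.88 on the SOX7::GFP high arrays and 5.55 and 5.34 on the SOX7::GFP low arrays. The arrays did not overlap, and the difference was 0.40 (95% interval 0.00 to 0.79, adjusted p = 0.206 from limma) over 4 of 7 probe sets. The upper bound of that interval lay under a 2-fold change. *Hoxa6* read 4.82 and 4.94 against 5.64 and 5.25, a difference of -0.56 (95% interval -1.05 to -0.08, adjusted p = 0.158 from limma). It rested on 1 of 4 probe sets, which had passed the filter through the SOX7::GFP low arrays alone and so had to differ.

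*Hoxa7*, tied to MLL leukaemia together with *Hoxa9*, read 7.51 and 7.46 on the SOX7::GFP high arrays and 7.44 and 6.61 on the SOX7::GFP low arrays. Its arrays did not overlap by a narrow margin, and the difference was 0.46 (95% interval -0.31 to 1.24, adjusted p = 0.433 from limma). Its probe sets disagreed. The 4 brightest, at 8.0 to 9.08, differed by -0.29 to 0.22, and the other 3 kept, at 3.30 to 7.59, by 0.92, 1.13 and 1.64. The last of these had passed through the SOX7::GFP high arrays alone and so had to differ. With the median of probe sets the gene's difference was -0.19, and it was 0.05 when low replicate 2 was left out and 0.88 when low replicate 1 was.

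*Hoxa4* read 6.81 and 6.82 against 6.67 and 6.73, a difference of 0.11 (95% interval -0.23 to 0.46). *Hoxa5*, which acts in blood, lung and gut, read 6.69 and 7.70 against 7.44 and 6.03, and its difference of 0.46 had the widest interval of the Hox genes (-1.04 to 1.97). It was -0.24 when low replicate 2 was left out and -0.04 when high replicate 2 was, and it rested on 1 probe set. *Hoxa10*, another gene of progenitors and leukaemia, differed by 0.02, *Hoxa3* by 0.02, *Hoxa11* by -0.36 and *Hoxa2* by -0.53. The cluster median was 0.02.

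In the HoxB cluster all 10 listed members were measured, the differences ran from -0.17 to 0.25 with a median of -0.04, and the arrays overlapped for every gene. With 1 array left out this median ran from -0.33 to 0.24. *Hoxb8*, which blocks myeloid differentiation when forced, read 9.91 and 9.89 on the SOX7::GFP high arrays and 10.33 and 9.77 on the SOX7::GFP low arrays. The high arrays lay between the low ones, and the difference was -0.15 (95% interval -0.73 to 0.43) over 1 of 4 probe sets. Its other probe sets read 3.21 to 5.17 and did not pass the filter, so the level of *Hoxb8* rests on that 1. *Hoxb3* read 7.48 and 7.40 against 7.53 and 6.84, a difference of 0.25 (95% interval -0.42 to 0.92). One of its 6 kept probe sets was far brighter, at 12.26 and 12.19 against 11.84 and 12.02.

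*Hoxb4*, known for expanding haematopoietic stem cells when overexpressed, read 6.72 and 6.07 against 6.71 and 6.13, a difference of -0.02 (95% interval -0.83 to 0.79). The 2 arrays of each group differed by more than the groups did. Among its 5 kept probe sets, 1 was erratic, at 5.75 and 1.47 against 5.27 and 3.45 (standard error 1.53), and it enters these means. The others differed by 0.14 (*Hoxb13*), 0.11 (*Hoxb7*), -0.01 (*Hoxb9*), -0.06 (*Hoxb2*), -0.13 (*Hoxb5*) and -0.17 (*Hoxb1* and *Hoxb6*).

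The HoxC cluster was the least measured, with 4 of 9 listed members and a median difference of -0.05 (-0.22 to 0.14 with 1 array left out). *Hoxc13*, best known from hair follicles, read 7.76 and 7.86 against 7.84 and 8.07, a difference of -0.15 (95% interval -0.55 to 0.25) over 1 of 8 probe sets. Its other probe sets read 2.27 to 5.50 and did not pass the filter, so its level too rests on 1. *Hoxc4*, *Hoxc6* and *Hoxc11* differed by -0.11, 0.00 and 0.30. *Hoxc5*, *Hoxc8*, *Hoxc9*, *Hoxc10* and *Hoxc12* had no probe set past the filter, as had *Hoxa13* and *Hoxd12*. The 33 probe sets of these 7 genes ran from 1.31 to 5.38 with a median of 3.11, and the highest second-highest value among them was 4.96, just under the filter. No level could therefore be read for them in either group.

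In the HoxD cluster 7 of 9 listed members were measured, with a median difference of -0.09. *Hoxd1* read 6.83 and 6.97 against 7.33 and 6.84, a difference of -0.18 (95% interval -0.74 to 0.37). *Hoxd3* read 6.88 and 6.88 against 7.19 and 6.55, with the high arrays between the low ones, and differed by 0.01 (95% interval -0.63 to 0.65). *Hoxd13*, a limb and genital patterning gene, differed by 0.41 over 1 probe set, and *Hoxd8*, *Hoxd9*, *Hoxd10* and *Hoxd11* by -0.16, -0.09, -0.09 and 0.11. *Hoxd4* could not be measured alone, as all its 13 probe sets are shared with *Hoxd3*. Of these, 4 passed the filter value, and the median difference over the 13 was -0.06.

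Differences were next set against position in the clusters, since paralogue number follows gene order. Paralogues 1 to 4 had a median difference of -0.04 (10 of 11 listed were measured), paralogues 5 to 8 of -0.13 (9 of 11) and paralogues 9 to 13 of 0.02 (11 of 16). Each median lay within 0.2 of 0, and each set held genes on both sides of 0. Across the 30 genes, paralogue number and difference correlated at r = 0.245 (Spearman's rho = 0.263). Within HoxD, over 7 genes, they correlated at r = 0.625 (rho = 0.786), the highest of the clusters. The difference of *Hoxd13* in that cluster rested on 1 probe set. The correlation was r = 0.123 (rho = 0.133) over 9 HoxA genes and r = 0.262 (rho = 0.333) over 10 HoxB genes. Over 4 HoxC genes it was r = 0.213 (rho = -0.2). Genes of 1 cluster share the same 4 arrays and are not replicates, so these are descriptions. Of the paralogue group of *Hoxa9*, *Hoxb9* differed by -0.01 and *Hoxd9* by -0.09.

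Hox genes varied more between the SOX7::GFP low arrays than between the groups. The median absolute difference was 0.48 between the low replicates, 0.19 between the high replicates and 0.14 between group means. Over all genes these medians were 0.19, 0.18 and 0.24. For 24 of 30 Hox genes the low replicates differed by more than the groups did, and for 24 of 30 low replicate 1 was above replicate 2, against 63.8% of all genes. Of the 30 Hox genes 26 had a mean under 7 and 9 rested on 1 probe set. Over all 11838 genes with a mean under 7 the medians were 0.24 for low and 0.22 for high replicates, and the part of low signal or few probe sets in the Hox values was not tested. Markers of the OP9 stroma also had a lower mean on low replicate 2. The mean over 12 markers was 6.74 on low replicate 1 and 6.09 on replicate 2, and 6.80 and 6.65 on the high arrays. Limma called 1 of the 12, *Thy1*, higher, against 3.61% of all genes. The summed level (log2 of the sum of linear values) of the 12 was 11.37 and 10.68 on the high arrays and 11.02 and 10.17 on the low arrays. Their part in the Hox values was not tested.

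At the level of probe sets, 87 of 264 Hox probe sets passed the filter and none was called by limma in either direction. Of these 15 (17.2%) were higher without overlap, against 30.3% of all kept probe sets, and 15 (17.2%) lower, against 21.2%. Among the higher ones, 1 of *Hoxa7* and 1 of *Hoxd11* had passed the filter through the SOX7::GFP high arrays alone and so had to differ. Among the lower ones, 1 each of *Hoxa6*, *Hoxb2* and *Hoxb6* had passed through the SOX7::GFP low arrays alone and likewise had to differ. Among the 87, 3 reached a change of 2-fold, none of them among the 11 brightest. Those 11, with a second-highest value of 8 or more, differed by -0.29 to 0.30 (lowest adjusted p = 0.496 from limma). The median standard error of a Hox gene was 0.23, against 0.17 over all genes.

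**Figure D4:**
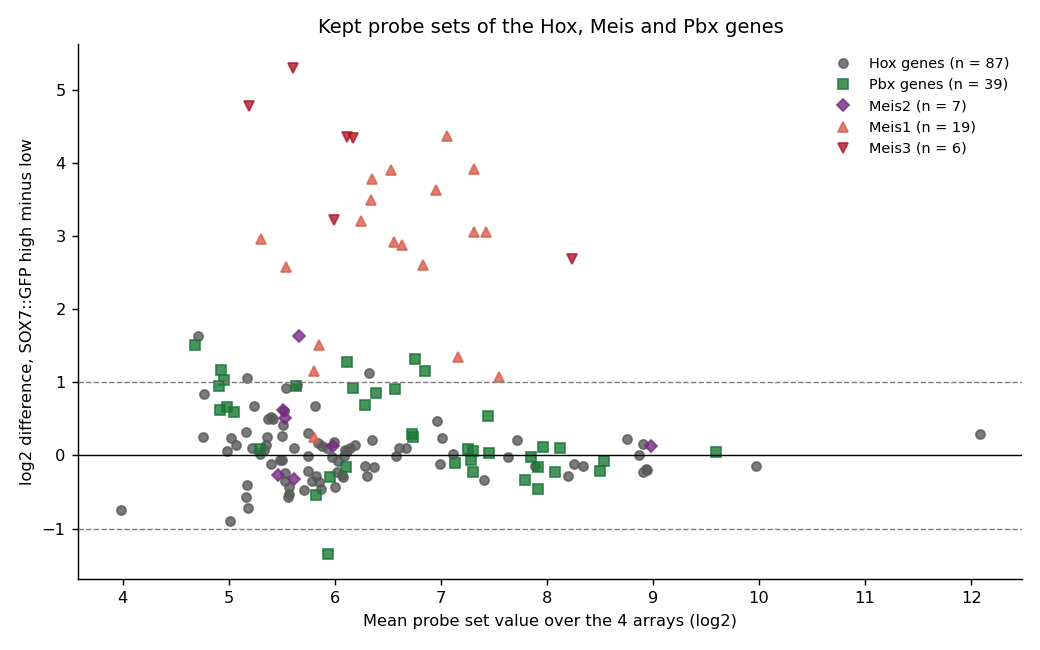
Log2 difference, SOX7::GFP high minus low, of every kept probe set of the members against its mean over the 4 arrays, with a 2-fold change dashed. The 87 Hox probe sets (grey) gather about 0 and narrow as the mean rises, while 18 of 19 *Meis1* and all 6 *Meis3* probe sets lie above 1.

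Genes that work with or upstream of the Hox genes were read from further lists. Of 12 TALE relatives and partners, among them *Pknox1*, *Tgif1* and the Iroquois genes, limma called none (2 had an unadjusted p under 0.05, and 1 by t-test), with a median of -0.26. *Pbxip1*, which encodes a protein that binds PBX and holds it from DNA, differed by -0.54 (adjusted p = 0.164 from limma). Of 8 Cdx, ParaHox and Evx genes limma also called none (1 had an unadjusted p under 0.05, and 0 by t-test). *Cdx4*, which activates Hox genes in embryonic blood, read 4.79 and 3.89 against 5.28 and 5.51, a difference of -1.06 (adjusted p = 0.138 from limma). *Cdx4* rested on 1 probe set, which had passed the filter through the SOX7::GFP low arrays alone and so had to differ.

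Trithorax and MLL complexes keep Hox genes active, and limma called none of 11 genes (1 had an unadjusted p under 0.05, and 0 by t-test), with a median of 0.00. *Kmt2a*, which encodes MLL1, differed by -0.52 (adjusted p = 0.168 from limma). Of 15 measured Polycomb genes, which keep Hox genes silent, 1 was called lower (3.24% of all genes were) and none higher (3.61%). This was *Ezh2*, the H3K27 methyltransferase, at 7.99 and 8.08 on the SOX7::GFP high arrays against 9.56 and 9.31 on the SOX7::GFP low arrays. Its groups lay well apart, with a difference of -1.40 (adjusted p = 0.0125 from limma). *Bmi1*, a subunit of the other Polycomb complex, differed by 0.62 (adjusted p = 0.0805 from limma).

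Within the clusters, 5 of 16 listed non-coding RNAs were measured and limma called none (0 had an unadjusted p under 0.05, by t-test too), with a median of 0.00. *Hoxa11os*, the antisense RNA of *Hoxa11*, read 7.97 and 7.99 against 8.13 and 7.62, and *Hoxaas2* read 7.41 and 7.49 against 7.59 and 7.49. Of 15 genes flanking the clusters 1 was called, against 6.85% of all genes in either direction. *Snx10*, a sorting nexin gene listed as flanking HoxA, read 8.14 and 8.09 against 6.98 and 7.11, a difference of 1.07 (adjusted p = 0.0181 from limma). The other genes listed as flanking HoxA, *Skap2*, *Tax1bp1* and *Hibadh*, differed by 0.11, 0.17 and -0.40 and were not called.

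Of 12 genes reported as targets of HOXA9 and MEIS1, 3 were called higher and 2 lower, with a median of 0.15. Of all genes, 3.61% were called higher and 3.24% lower. *Cd34*, a progenitor surface protein gene, read 10.07 and 9.74 on the SOX7::GFP high arrays against 7.50 and 7.01 on the SOX7::GFP low arrays, and *Flt3*, a cytokine receptor gene, read 8.44 and 7.52 against 6.13 and 5.64. The third was *Bcl2*, an anti-apoptotic gene, with a difference of 1.49. The lower genes were *Camk2d*, a kinase gene (-2.24), and *Erg*, an ETS factor gene (-1.98). The list thus held called genes in both directions.

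Cell type markers also differed between the subpopulations. The counts below stand beside 3.61% of all genes called higher and 3.24% called lower. All 11 measured B lineage markers were called lower in SOX7::GFP high cells, with a summed level of 9.24 and 10.68 on the high arrays and 14.41 and 14.26 on the low arrays. Megakaryocyte markers were called higher in 4 of 6, with summed levels of 10.37 and 10.88 against 8.40 and 8.89, and mast cell and basophil markers in 4 of 7, with summed levels of 13.03 and 12.55 against 10.38 and 10.15. Endothelial markers were called higher in 4 of 7 and lower in 1, with summed levels of 10.52 and 10.64 against 9.12 and 9.10. Myeloid markers were called lower in 2 of 10, *Camp* (-4.52) and *Ltf* (-4.69), with summed levels of 14.15 and 13.44 against 14.38 and 14.43. T and NK markers were called lower in 1 of 6, *Klrb1c* (-1.33), with summed levels of 9.06 and 8.87 against 9.23 and 9.08. These arrays give no value of 0 for any marker. The part of these cell types in the *Meis* values was not tested.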

How the data were processed

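Log2 values of 1236087 probe sets of mouse exon arrays were deposited by the authors after robust multi-array averaging (RMA, from the methods and the submitters' processing notes; version not given in the sources used here). Array medians were 3.90 to 3.91. Arrays give signal over background and no counts, so their number, 2 per group, limits the precision.

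Probe sets with 1 platform symbol (321091) were used, and those with several (7796) or none (907200) were left out. Of 22378 names, 18054 were current symbols and 4259 were updated to GRCm38.p6. Probe sets with a second-highest value of at least 5.04 were kept (191615) and averaged per gene. The design meant to keep as many as the methods did, a value of 5.08 here, which was tried as an alternative. Limma 3.58.1 in R 4.3.3 fitted 18762 genes, with Benjamini-Hochberg adjustment, after a check on simulated data. Members and lists were chosen with earlier results of these data known. Genes with array values are those called, at an unadjusted p under 0.05 or among the 10 brightest members. *Meis2*, *Pbx4*, *Hoxb4* and the list genes given with array values were added after values were seen. Alternatives covered the filter, the probe set summary, scaling, the test, a replicate block and each array left out.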

Additional observations from a re-analysis of the deposited data

How the results depend on the processing

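Among all genes 1286 were called. In the alternative with a fit per probe set, 1 probe set picked by its own result in these data stood for each gene. A fit per probe set called 1986, the methods' t-test 0 after Benjamini-Hochberg adjustment (3504 at an unadjusted p under 0.05, of which 1193 changed by at least 2-fold), and leaving out 1 array 311 to 717. Of the members 2 were called higher, 0 by the t-test (adjusted p = 0.271 for *Meis1* and 0.190 for *Meis3*) and 1 to 2 with 1 array left out, where *Meis1* was lost without either SOX7::GFP high array, and the remaining array was assumed to vary like the other group. The count was 3 with the median of probe sets, which added *Pbx3*, and 3 in the fit per probe set, which added *Meis2* through its 1 called probe set. No member was called lower under any alternative run.

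The HoxA median of 0.02 was 0.16 in the fit per probe set, 0.26 with at least 3 probe sets, 0.16 without a filter and 0.19 with a filter value of 6. The HoxD median of -0.09 was -0.27, 0.036 without a filter and -0.21 with a filter value of 6, and -0.16 to 0.13 with 1 array left out, the highest without SOX7::GFP low replicate 1. With 1 array left out the HoxA median ran from -0.07 to 0.08, the HoxB median from -0.33 to 0.24 and the HoxC median from -0.22 to 0.14, and the uncalled differences of *Hoxa5*, *Hoxb3*, *Hoxb8*, *Hoxd1*, *Hoxd3* and *Pbx2* took either sign. In the fit per probe set the *Meis* median was 3.92 and the *Pbx* median -0.46, and with a filter value of 6 the *Pbx* median was -0.12. The fit per probe set leans to extremes, as its probe sets were picked by result. It gave *Meis3* its highest probe set difference (5.29) and *Pbx2* its lowest (-0.46), and the median of all genes was 0.24. Under the other filters and the fit per probe set, other probe sets or genes enter these medians. No result changed sign while called. Further quantile normalization moved the median of all genes from 0.05 to -0.02 and centring on reference genes to -0.05. The filter value of 5.08, added after seeing the data, called 1299 genes and the same count of 2 members.

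The replicate block called 1346 genes and 2 members (adjusted p = 0.0146 for *Meis1* and 0.0138 for *Meis3*, limma). Deviations of same-numbered arrays correlated at 0.104 over 2 pairs, so the numbers were not taken to pair the samples. Low signal limits the members near 5.04, where a change can be hidden by background, and 8 members had no value.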
